A study of Homo sapiens with 2 samples.

Results

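The cyclin-dependent kinase (CDK) inhibitors were examined together with MTAP, the gene next to CDKN2A on chromosome band 9p21. Every probe set annotated to a single one of 9 genes was taken, and 22 probe sets of 8 genes were found among 54613 probe sets of the array, which name 19775 genes. No probe set is named for the remaining gene, CDKN2C, in the annotation used here. The cells were U87, a long-used human glioblastoma line known to lack CDKN2A, CDKN2B and MTAP. The cells were transfected by Lipofectamine RNAiMAX with either a control siRNA or HOXD9 siRNA-2, at 50 nM each, and RNA was taken on Day 2. They are called control cells and HOXD9 siRNA-2 cells here. There is 1 array per condition, so neither an SD nor a test between conditions can be given, and each difference is that between 2 arrays. With only 1 HOXD9 siRNA analysed here, effects of HOXD9 loss and other effects of that siRNA cannot be told apart.

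Progression from G1 into S phase is driven by CDK4 and CDK6 with D-type cyclins and by CDK2 with cyclins E and A. Inhibitors of the INK4 family bind CDK4 and CDK6 alone, whereas those of the CIP/KIP family bind a wide range of cyclin-CDK complexes. CDKN2A encodes both p16INK4a, an INK4 inhibitor, and, in another reading frame, ARF, which protects p53 by binding MDM2. Loss of 9p21 is one of the common lesions of glioblastoma, and MTAP, a methionine salvage enzyme, is often lost with it.

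The data are linear signal intensities, in arbitrary units. A background level was read from 27 probe sets for Bacillus subtilis transcripts. Their highest signal was 11.4 in control cells and 18.4 in HOXD9 siRNA-2 cells, and the larger value served as background for both arrays. Of all probe sets, 43.2% lay at or under it on both arrays. Ratios are HOXD9 siRNA-2 over control siRNA, on the log2 scale. Over all probe sets the middle log2 ratio was -0.27, and bringing both arrays to a common median (centering) adds 0.30 to every value. Probe sets with a mean signal of at least 19.8 were taken as above the signal filter. The targeted gene HOXD9 gave 19.7 and 5.58 on one probe set and 9.33 and 11.4 on the other with control siRNA and HOXD9 siRNA-2, in that order, which is within or close to background. The glial cell markers GFAP, S100B and OLIG2 were at background on every probe set, SOX2 gave at most 19.2, whereas VIM reached 11349, CD44 5638 and NES 116 in control cells. Of 14 probe sets for markers of leukocytes, endothelium, epithelium and neurons, 12 were at background, against the 43.2% of all probe sets. The 2 above it were one of PECAM1, at 43.4 and 40.3, and the only one of the epithelial marker EPCAM, at 28.2 and 23.8.

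To show the starts from which these RNAs are made, the 100 bases before each RefSeq start in the table used here are given, 5′ to 3′ along the gene, in build GRCh38.p14. They are reference sequence, and the arrays do not tell whether the 9p21 sequence is present in these cells. CDKN1C had no start in the table used and is left out here and in the counts below. Capitals mark the GC box GGGCGG on either strand, a motif bound by Sp1.
MTAP, chr9:21802536-21802635, plus strand: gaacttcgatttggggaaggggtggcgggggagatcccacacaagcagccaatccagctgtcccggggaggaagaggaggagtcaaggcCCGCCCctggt
CDKN2A, ARF start, chr9:21995325-21995424, minus strand: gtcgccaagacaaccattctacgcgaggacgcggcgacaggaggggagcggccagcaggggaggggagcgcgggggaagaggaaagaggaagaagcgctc
CDKN2A, p16INK4a start, chr9:21974858-21974957, minus strand: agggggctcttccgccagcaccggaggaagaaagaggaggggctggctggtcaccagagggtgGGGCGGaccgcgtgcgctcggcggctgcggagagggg
CDKN2B, chr9:22009306-22009405, minus strand: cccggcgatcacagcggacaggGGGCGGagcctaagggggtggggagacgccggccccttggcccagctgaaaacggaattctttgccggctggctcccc
CDKN2D, chr19:10568980-10569079, minus strand: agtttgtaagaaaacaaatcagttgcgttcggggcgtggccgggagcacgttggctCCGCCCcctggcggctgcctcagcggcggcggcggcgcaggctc
CDKN1A, chr6:36678614-36678713, plus strand: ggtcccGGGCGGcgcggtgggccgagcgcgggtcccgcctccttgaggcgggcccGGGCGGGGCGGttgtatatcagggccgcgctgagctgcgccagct
CDKN1B, chr12:12717268-12717367, plus strand: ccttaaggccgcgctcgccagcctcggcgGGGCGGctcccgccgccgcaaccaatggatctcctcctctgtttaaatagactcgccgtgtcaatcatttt
CDKN3, chr14:54396907-54397006, plus strand: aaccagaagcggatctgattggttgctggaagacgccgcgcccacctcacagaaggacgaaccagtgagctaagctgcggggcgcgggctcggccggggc
In the full window of 250 bases before and 50 after the start, 3 of 4 starts at 9p21 and 3 of 4 starts elsewhere held a GC box, against 45.0% of 35116 RefSeq windows of this length. The CCAAT box, searched as CCAAT on both strands, was present in 1 of 4 and 3 of 4, against 34.6% of windows. The windows held 15 to 28 CpG dinucleotides at 9p21 and 28 to 36 elsewhere, and the median over all windows was 14. A match is a description of these letters and not a bound site.

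CDKN2A, CDKN2B and MTAP gave little signal over background in either condition. Of 11 probe sets for CDKN2A, CDKN2B and MTAP, 9 lay at or under background on both arrays, against 6 of 11 for the inhibitors outside 9p21, 43.2% of all probe sets and 38.6% of those naming a single gene. Their median signal was 5.57 in control cells and 2.12 in HOXD9 siRNA-2 cells. The median of the Bacillus subtilis control probe sets was 3.90 and 2.52. The highest signal from any of the 11 was 26.9. Probe sets differ in how strongly they bind their target, so a signal over background is not read as an amount of RNA relative to another gene. Against the highest Bacillus subtilis signal of each array taken by itself, 8 of the 11 and 6 of the 11 were at background, and 34.4% of all probe sets.

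CDKN2A was read by 3 probe sets. Probe set 207039_at gave 1.51 in control cells and 5.93 in HOXD9 siRNA-2 cells, and 211156_at gave 5.57 and 2.52. Both pairs lie within the range of the Bacillus subtilis controls. The exception was 209644_x_at, with signals of 26.9 and 19.5, above background on both arrays. The ending _x_at marks a probe set whose probes can bind more than one transcript, and 32.5% of 4207 such probe sets were at background. The log2 ratios were 1.97 and -1.14 on the probe sets at background and -0.47 on the one above it.

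CDKN2B, which encodes the INK4 inhibitor p15INK4b, had signals of 7.01 and 1.92 on 207530_s_at and 1.03 and 0.350 on 236313_at. All 4 signals lay under the background level. The measured log2 ratios of -1.87 and -1.56 compare such signals, and no fold difference is read from them.

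MTAP, which cleaves methylthioadenosine made in polyamine synthesis, was read by 6 probe sets, and 5 were at background on both arrays. Among these 5, signals ran from 0.891 to 12.2 in control cells and from 1.27 to 7.68 in HOXD9 siRNA-2 cells. The remaining one, 211364_at, gave 22.5 and 8.81, at least 1.22-fold lower with HOXD9 siRNA-2 when the second signal is taken at background. After centering each array on its median, this probe set too was at background on both, with 20.3 and 9.77 against a level of 20.4. Measured log2 ratios of the 6 probe sets were -1.35, -2.64, -2.85, 1.78, 0.65 and 0.51, in order of falling mean signal, and they differed in sign between probe sets of this one gene.

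**Figure D1:**
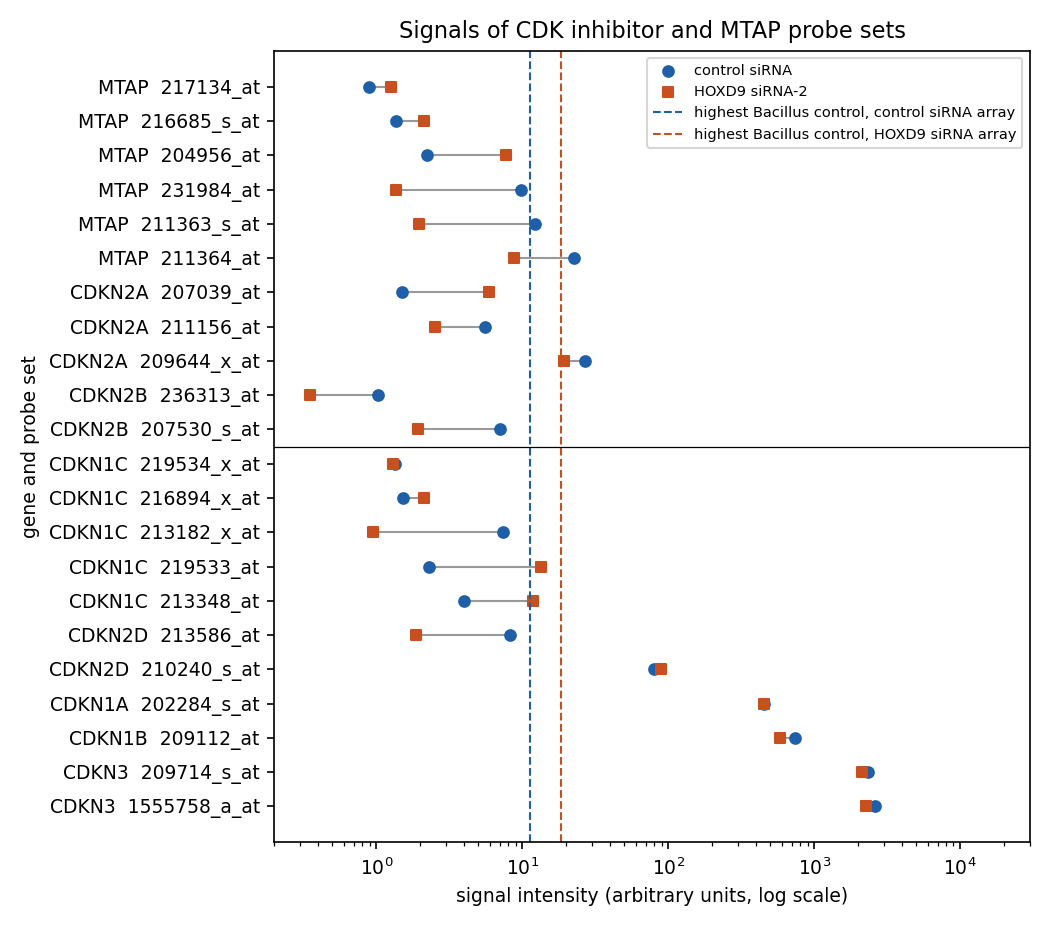
Signal intensity (x axis, arbitrary units, log scale) of the 22 probe sets (y axis) with control siRNA (blue circles) and HOXD9 siRNA-2 (orange squares), with genes of 9p21 above the horizontal line. Dashed lines mark the highest Bacillus subtilis control signal of each array, 11.4 and 18.4; 2 probe sets of 9p21 and 5 of the other inhibitors have a signal to the right of both lines.

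Genes around CDKN2A, CDKN2B and MTAP were then taken from a list in RefSeq order. Of 38 such genes, 23 had every probe set at background, against 34.6% of 19775 genes on the array and 20.2% of those with 2 or more probe sets. Against each array's own highest Bacillus subtilis signal, 17 of the 38 did, and 26.5% of all genes. IFNA6, IFNA13, CDKN2A-DT and IZUMO3 of the list had no probe set named for them alone and were not counted. Among the genes with a probe set, 25 in a row from MLLT3 to ELAVL2 formed a stretch. It had 38 of 41 probe sets at background, against 43.2% of all probe sets. Of its 22 genes other than the 3, 21 had every probe set at background. The ends of this stretch were read from the values themselves, so its counts are a description. Of the 22 genes, 14 are type I interferon genes, which are usually silent in uninfected cells, and 13 of these had their probe set at background, IFNA7 (21.3 and 20.9, an _x_at probe set) being the exception. The other 8 are not interferon genes, and their expression in other cell types was not examined here. All 16 probe sets of these 8 were at background, the highest signal being 16.9. Against the control array's own level of 11.4, KLHL9 (16.9), MIR31HG (15.7) and ELAVL2 (12.5) each had 1 signal above it, as had IFNW1 (16.5) and IFNA16 (11.7), which left 16 of 22 genes of the stretch with every probe set at background. KLHL9, an adaptor of a cullin ubiquitin ligase in mitosis, had 4 such probe sets, from 5.53 to 16.9 with control siRNA. FOCAD, which encodes focadhesin, gave 1.10 and 8.47, and HACD4, an enzyme of fatty acid elongation, 0.431 and 5.59 with control siRNA. MLLT3, a chromatin reader, the neuronal RNA-binding protein gene ELAVL2, DMRTA1, MIR31HG and CDKN2B-AS1, the antisense RNA of the INK4 locus, completed the 8.

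Most genes of the list on either side of this stretch had a signal above background, ACER2 and IFNK being the exceptions. Toward the telomere, RPS6, a protein of the small ribosomal subunit, reached 7714 with control siRNA, RRAGA, a GTPase of the amino acid response, 1226, and HAUS6, a subunit of the augmin complex, 536. Toward the centromere, TUSC1 gave 386, PLAA up to 266 and CAAP1 up to 235. DENND4C (209), C9orf72 (86.4), IFT74 (60.5), LINGO2 (59.2) and SLC24A2 (48.9 on its brightest probe set) were also above background on both arrays. With HOXD9 siRNA-2 the first 6 genes lay far above background, at 168 or more. On the telomeric side 12 of 16 probe sets, and on the centromeric side 14 of 21, had a signal above background on at least one array. The other 4 and 7 were at background on both arrays, against 43.2% of all probe sets. Signals of RNA do not tell a deleted gene from a silent one, and copy number was not measured in the data used here. Over all neighbours 40 of 67 probe sets were at background, against the same 43.2%. The count was 30 of 67 against the highest Bacillus subtilis signal of each array by itself, where 34.4% of all probe sets were at background. It was 27 of 67 against the 95th percentile of those signals, for which no share over all probe sets was taken.

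**Figure D2:**
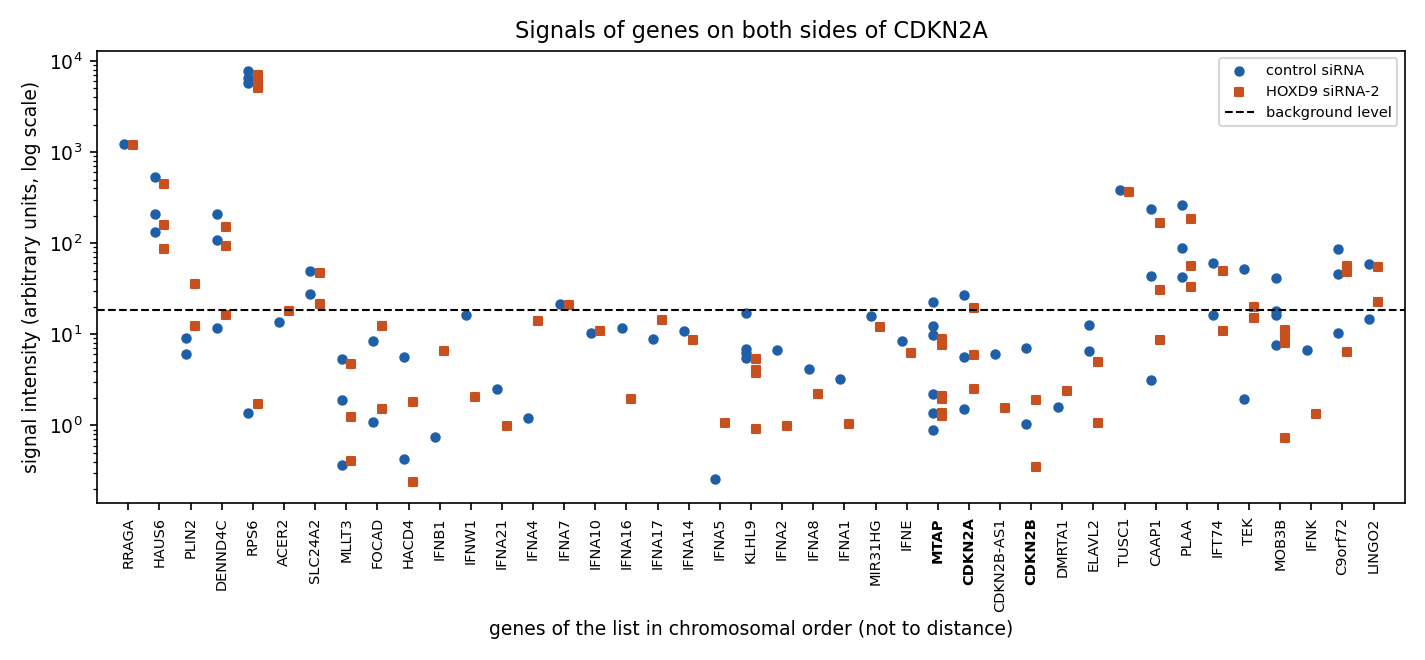
Signal intensity (y axis, arbitrary units, log scale) of each probe set of 41 genes around CDKN2A, placed in chromosomal order along the x axis without regard to distance, with control siRNA (blue circles) and HOXD9 siRNA-2 (orange squares). The dashed line is the background level, 18.4; from MLLT3 to ELAVL2 only IFNA7, MTAP and CDKN2A (MTAP, CDKN2A and CDKN2B in bold) have a point above it, and none exceeds 26.9.

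Among the inhibitors outside 9p21, no probe set above the signal filter differed by more than 2-fold. Over all members 6 probe sets passed the filter, and 0 of these 6 were past 2-fold either way, whereas 6.69% of all probe sets above it were lower and 0.615% higher, 7.30% in all. No probe set passed 2-fold after centering on the median, quantile normalization or removal of a loess trend. Between probe sets for the same gene, log2 ratios varied with a pooled SD of 0.41 (6081 genes). All 6 ratios lay between -0.47 and 0.16. In RNA of whole cultures, less RNA per cell and fewer cells with the RNA cannot be told apart.

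CDKN1A, which encodes p21, the CIP/KIP inhibitor induced by p53, was read by 202284_s_at at 454 in control cells and 453 in HOXD9 siRNA-2 cells. Its log2 ratio was -0.0029, or 0.30 after centering. It thus stood above the median of all genes, -0.25, by less than the SD among probe sets. CDKN1B, which encodes p27, the inhibitor of resting cells, gave 740 and 586 on 209112_at. Its log2 ratio was -0.34, or -0.04 after centering, close to the median of all genes.

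CDKN1C, which encodes p57, an imprinted inhibitor of development, was not detectable above background on any of its 5 probe sets. Signals were between 1.34 and 7.34 in control cells and between 0.955 and 13.4 in HOXD9 siRNA-2 cells. The gene lies outside 9p21, so a signal within background was not particular to 9p21 among the inhibitors. Measured log2 ratios were 1.57, 2.55, -2.94, 0.48 and -0.05, and they had no common sign.

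CDKN2D, which encodes p19INK4d, was above background on 1 of its 2 probe sets. On 210240_s_at it gave 80.1 in control cells and 89.3 in HOXD9 siRNA-2 cells, a log2 ratio of 0.16, or 0.46 after centering and 0.50 after quantile normalization. It had the highest ratio of the 6 probe sets above the filter under each of these scalings. The other CDKN2D probe set, 213586_at, gave 8.17 and 1.88, both within background, and a measured log2 ratio of -2.12, opposite in sign.

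CDKN3, a phosphatase that removes the activating phosphate of CDK2 and CDK1 and is itself made in dividing cells, was far above background on both of its probe sets. The signals were 2599 and 2258 on 1555758_a_at and 2352 and 2133 on 209714_s_at. The log2 ratios were -0.20 and -0.14, so that both probe sets read slightly lower with HOXD9 siRNA-2. After centering they were 0.10 and 0.16, with the sign turned, and after quantile normalization -0.04 and 0.05.

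**Figure D3:**
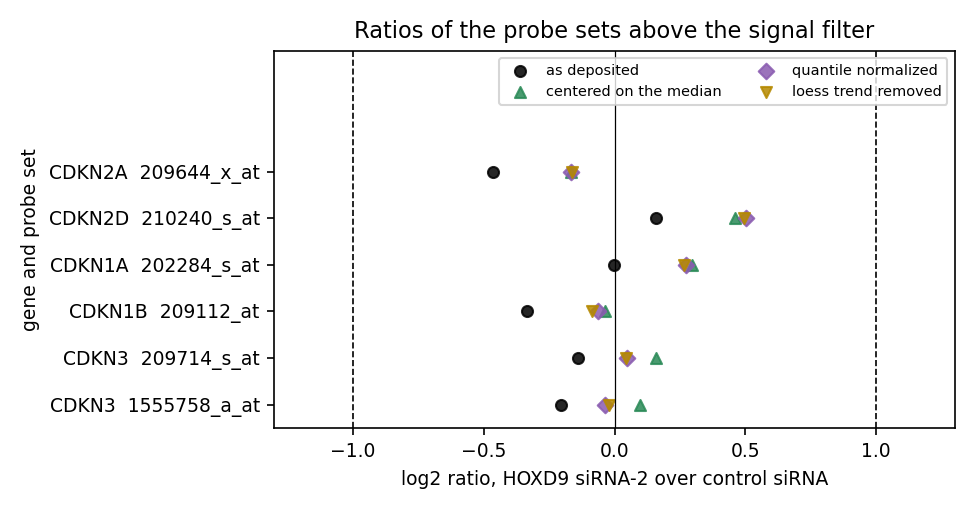
Log2 ratio of HOXD9 siRNA-2 over control siRNA (x axis) of the 6 probe sets above the signal filter (y axis), from the deposited signals and under 3 other scalings of the arrays. Dashed lines mark 2-fold; all points lie between -0.47 and 0.50, and centering moves each point by 0.30 to the right.

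The measured ratio passed 2-fold downward in 8 and upward in 4 of the 16 member probe sets below the filter. Of all probe sets below the filter, 30.9% were lower and 20.4% higher by as much, 51.3% in all. In 15 of the 16 both signals lay at or under background, and the other was the MTAP probe set with 22.5 in control cells. Ratios between such signals describe dim readings and are given for completeness.

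The kinases and cyclins that the inhibitors act on were next examined, each gene by its brightest probe set above the filter. Of 8 such genes of G1, 2 were past 2-fold downward (CCND3 and CCNE2) and 0 upward, against 4.95% and 0.516% of all 11624 genes. CCND3, which encodes cyclin D3, went from 547 to 228, a log2 ratio of -1.26. CCNE2, an E-type cyclin, went from 424 to 194, a log2 ratio of -1.13, and its other probe set gave -1.21. Neither passed 2-fold after centering, with -0.96 for CCND3 and -0.83 for CCNE2, and 2.31% of all genes were then lower and 1.17% higher. The shares were 2.25% and 1.26% after quantile normalization, and 2.25% and 1.24% after loess. The median of the 8 genes was -0.58, and that of all genes -0.25. CDK4, the main target of the INK4 inhibitors, stood at 3243 and 2568 with a log2 ratio of -0.34. CDK6 had -0.26 on its brightest probe set and from -1.28 to 0.14 over 6 above the filter. CDK2 had -0.63 on each probe set that passed the filter, and CCNE1 -0.69.

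Of 9 genes of the mitotic kinase and its cyclins and regulators, none passed 2-fold, and their median was -0.42, or -0.12 after centering. CDK1 went from 2418 to 1460, or -0.73 on the log2 scale, with a range from -0.95 to -0.51 among 4 probe sets. CDC25C, a phosphatase that activates CDK1, stood at -0.78, the inhibitory kinase PKMYT1 at -0.68 and CDC25B at -0.52. The 4 genes of the CDK-activating kinase and of kinase folding had a median of -0.10, with CCNH at -0.39, CDC37 at -0.12, CDK7 at -0.09 and MNAT1 at 0.19, and none passed 2-fold.

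Genes for turnover of the inhibitors had 16 of 16 above the filter, of which 1 was more than 2-fold lower and 0 more than 2-fold higher, and a median of -0.28. DTL, the substrate receptor by which a CUL4 ligase degrades p21 during S phase, went from 704 to 336, a log2 ratio of -1.07, and its other probe set read 532 and 265. After centering the log2 ratios were -0.77 and -0.70, short of 2-fold. SKP2, which recognizes p27 for degradation, gave -0.55 on its brightest probe set, with signals of 1033 and 704, and -1.31 and -1.20 on dimmer ones. PCNA, which presents p21 to that ligase, stood at -0.66 and CUL4A at -0.58.

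Of the list of p53 and its targets, 23 genes passed the filter. On the brightest probe set 0 of them were past 2-fold in either direction, and their median was -0.18, or 0.12 after centering. MDM2, the ligase of p53 and a p53 target like CDKN1A, went from 241 to 159, a log2 ratio of -0.60. Its 7 probe sets above the filter disagreed, from -0.82 to 2.87. The highest was an _x_at probe set that read 7.35 with control siRNA, within background, and 53.9 with HOXD9 siRNA-2, at least 2.93-fold higher. POLK, a translesion polymerase, stood at -0.83, the phosphatase PPM1D at -0.72, the nuclease AEN at -0.70 and the ribonucleotide reductase subunit RRM2B at -0.65. These were the largest ratios of the list by size, and 11 of its 23 genes lay below the median of all genes, -0.25. The highest was PHLDA3 at 0.18, or 0.49 after centering.

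Regulators of INK4 or CIP/KIP transcription had 21 genes above the filter. On the brightest probe set, 1 was more than 2-fold lower and 0 more than 2-fold higher. The median was -0.39, or -0.09 after centering. The one past 2-fold by its measured ratio was CBX2, a Polycomb protein, with 31.0 and 12.0. The second signal lay within background, so CBX2 was at least 1.68-fold lower, or 1.37-fold after centering, and neither bound reached 2-fold. EED, a subunit of Polycomb repressive complex 2, stood at -0.92, ID1, an inhibitor of helix-loop-helix factors, at -0.69 and SMAD4, of TGF-β signaling, at -0.65. Dimmer probe sets were past 2-fold for SP1, downward at -1.15, and for ZBTB17, upward at 1.02. The brightest probe sets of SP1 and ZBTB17 gave -0.54 and 0.01.

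The enzymes next to MTAP in methionine and adenine salvage gave clear signals, with 14 of 15 genes of this list above the filter, and 0 past 2-fold in either direction. MTAP itself was the gene that did not pass. Their median was -0.14, or 0.16 after centering. APIP, an enzyme of the same salvage route, went from 745 to 420, a log2 ratio of -0.83, MAT2A, which makes S-adenosylmethionine, stood at -0.40, ENOPH1 at -0.38 and AMD1 at -0.32. PRMT5, an arginine methyltransferase that methylthioadenosine inhibits, gave 539 and 507, and its partner WDR77 733 and 677, both named after their values were seen.

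Over these 7 lists 95 genes passed the filter. By the brightest probe set, 4 of them were more than 2-fold lower and 0 more than 2-fold higher. The share of lower genes was thus near the 4.95% of all genes. Of the 9p21 list, 16 genes were above the filter. MOB3B (41.9 and 8.10, at least 2.28-fold lower, or 1.85-fold after centering), TEK (51.6 and 15.2, at least 2.81-fold lower, or 2.28-fold) and PLIN2 (9.03 and 35.4, at least 1.92-fold higher) had the largest ratios there. Each rested on 1 probe set with a signal within background, and the second TEK probe set gave 1.95 and 19.9, the opposite direction.

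**Figure D4:**
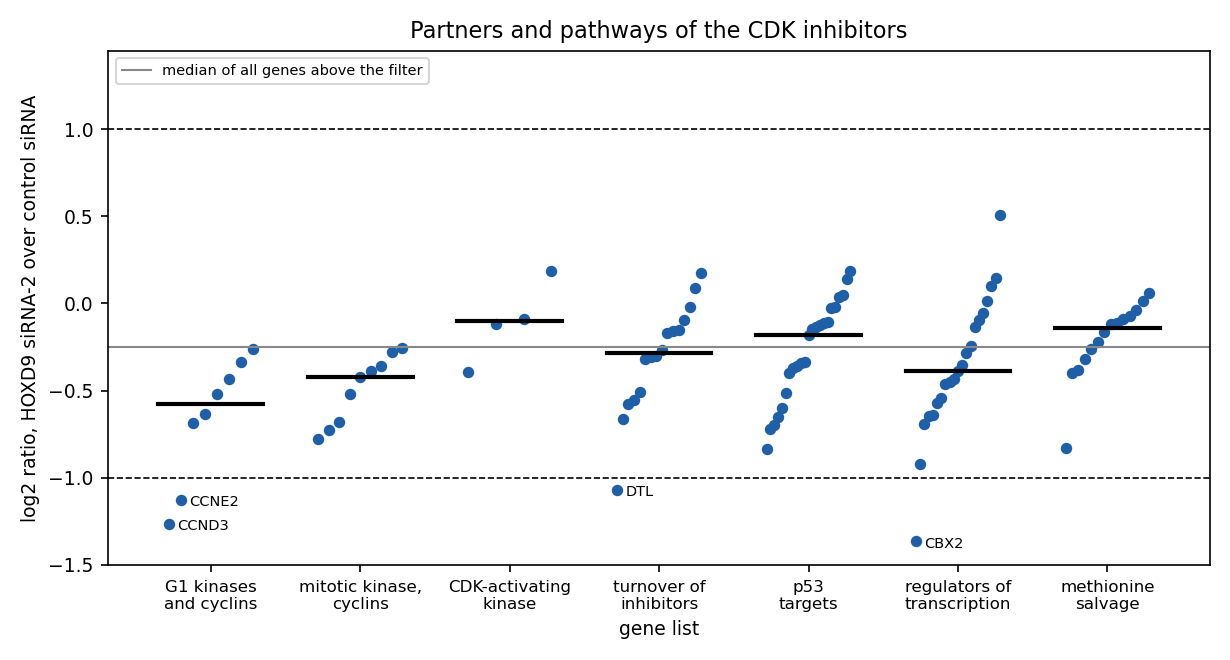
Log2 ratio of HOXD9 siRNA-2 over control siRNA (y axis) of each gene above the signal filter, by its brightest probe set, in 7 lists (x axis). Black bars are list medians, the gray line is the median of all genes, -0.25, and dashed lines mark 2-fold. CCND3, CCNE2, DTL and CBX2 are past 2-fold, and all points of the G1 list and of the mitotic list lie below the gray line.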

How the data were processed

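Expression was measured in 2 samples, 1 array each, on the Affymetrix Human Genome U133 Plus 2.0 array. For each probe set the authors deposited 1 signal intensity on a linear scale. GCOS is the software listed in the submitters' processing notes. No detection calls were used here, and the scaling target is not given in the sources used here. Precision is limited by the number of arrays.

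Of 54613 probe sets (62 controls were left out), 41091 had 1 gene, 1801 several and 11721 were not listed in the platform annotation. Symbols were updated through Entrez numbers against RefSeq GRCh38.p14, which 41037 probe sets matched. The signal filter was the median of the mean signals, 19.8. The threshold of more than 2-fold is the one the study used for these arrays. The members and lists were chosen with earlier results of these data known. Each member and every probe set of it was named, and from each list up to 4 genes with the largest ratio, with CDK4, CDK6, CDK2, CDK1, MDM2 and SKP2. Genes of the 9p21 list with a probe set above background on both arrays were named too. Alternatives were 3 scalings (median, quantile, loess with fraction 0.3), other filters (none, the 70th percentile at 75.7), other background levels, a floor at background, averaged probe sets, and no _x_at or _s_at probe sets. Ratios and scalings were tested on simulated data. Python 3.11.15, numpy 2.4.6, pandas 2.3.3, statsmodels 0.14.6 and matplotlib 3.10.9 were used.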

Additional observations from a re-analysis of the deposited data

How the results depend on the processing

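Of 60 values recomputed under an alternative, 55 stayed close to the reported one, within 1.5 times for counts and within the SD among probe sets of one gene, 0.41, for log2 ratios. Part of this closeness was fixed in advance, so the 55 do not measure robustness. Centering adds 0.30 to every log2 ratio, less than 0.41, so no member ratio could count as moved by it. Averaging where 1 probe set passed the filter, or a floor under signals already above background, returned the same number by construction. No member ratio above the filter passed 2-fold under any scaling. The sign turned for CDKN1A under all 3 scalings. For CDKN3 it turned under centering on the brightest probe set, and under all 3 scalings on the other one. Ranges are given by the brightest probe set. The log2 ratio ranged from -0.0029 to 0.30 for CDKN1A, from -0.34 to -0.04 for CDKN1B, from -0.47 to -0.16 for CDKN2A, from 0.16 to 0.50 for CDKN2D and from -0.20 to 0.10 for CDKN3. Without a signal filter, 12 of 22 member probe sets were past 2-fold in place of 0 of 6, through signals at background. Without probe sets ending in _x_at or _s_at, 3 of 5 probe sets of inhibitors outside 9p21 were at background, where fewer were counted. In the partner and pathway lists, the genes lower by more than 2-fold numbered 1 in place of 4 under each of the 3 scalings (1 with centering, 1 with quantile normalization, 1 with loess), which raise the median log2 ratio by 0.29 to 0.30. That gene was CBX2, whose signal with HOXD9 siRNA-2 was within background, so that after centering it was at least 1.37-fold lower, a bound short of 2-fold. Probe sets at background for CDKN2A, CDKN2B and MTAP numbered between 8 and 10 of 11 over the scaling and background settings. No paired analysis was possible because each condition has 1 array. The signals of dim probe sets, with no detection calls or replicates, limit what can be read of 9p21 and CDKN1C.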
